A study of Stylophora pistillata with 18 samples.

Results

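The 100 most stable transcripts of the reef-building coral Stylophora pistillata were described here, out of 29419 deposited gene models. A model is 1 predicted gene of the deposited annotation. Members were the models with the lowest coefficient of variation (CV, the SD divided by the mean) over all 18 libraries, among the 7322 models whose mean lay from 20 to under 1000 CPM. CPM is the count as a share of the library's total, set to a common library size, and was divided here by a factor from the trimmed mean of M-values (TMM), which corrects for differences in library composition. Members were thus chosen by the CV of these same 18 values, so their small spread is a description and not a finding. RNA was sequenced from wild type adult colonies after 18 h in seawater with 250 µM 3'3'-cUA, in seawater with 250 µM 2'3'-cGAMP, or in seawater alone. Each treatment had 6 libraries, with 3 specimens from each of 2 colonies, named below by treatment, colony number and specimen letter. All libraries thus share the same 2 colonies, and the labels do not say how independent the specimens of a colony were.

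Cyclic dinucleotides are second messengers that cGAS and related receptors make, and in vertebrates 2'3'-cGAMP switches on the receptor STING. A transcript whose share of the messenger RNA stays level under such a treatment serves as a reference in quantitative PCR, where target genes are read relative to it. Sequencing counts are shares of a library as well, so a level transcript can only be recognised relative to the other transcripts, through the scaling chosen. None of the members carried a product name in the sources used here, so no role is given to any of them. Of the 100 members, 71 matched a gene of the reference table of assembly jaStyPist1.2 by protein accession, 26 of them with the same accession version, and all matched symbols were LOC numbers. Unmatched members are named by their model identifier.

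Total counts ran from 24307409 to 34361709 in the cUA libraries, from 22175801 to 28033513 in the cGAMP libraries and from 27090845 to 41800393 in the seawater libraries. TMM factors ran from 0.619 to 1.23, and cUA 2A (0.619) and control 1A (0.714) stood apart at the low end. The members together held 0.612% of the counts in cUA 2A and 0.687% in control 1A, against 0.850% to 1.14% in the other libraries. With those 2 libraries left out the rule picked 51 of the 100 members again, and the median CV of the members was then 10.1%.

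The members' CV ran from 7.04% to 11.7%, with a median of 10.5%, while the other 7222 models of the window had a median of 31.6% and a highest value of 279%. The order had no gap at the limit. Just inside it lay LOC111327426 at 11.7%, LOC111320547 at 11.73% and Spis_Spis19068_1 at 11.75%. Just outside lay LOC111339681 at 11.78%, Spis_XP_022791506_1 at 11.8% and LOC111336287 at 11.9%. The highest library of a member was 1.27 to 1.66 times its lowest, with a median of 1.46 times. Members spread over much of the window in level, with a median mean of 69.1 CPM against 52.6 CPM for the other models. By level, 32 of 3499 models at 20 to under 50 CPM were members, 36 of 1861 at 50 to under 100 CPM, 22 of 1143 at 100 to under 200 CPM and 10 of 656 at 200 to under 500 CPM. None of the 163 models at 500 to under 1000 CPM was a member, since the lowest CV there was 12.8%. Outside the window, 8 models below 20 CPM and 0 of the 91 at 1000 CPM or more had a CV at or under that of the last member.

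Counting error was a small part of even this spread. Each member had at least 328 counts in every library, and the CV that counting alone gives had a median of 2.31% over the members and ran up to 4.28%. Its square made up a median of 5.16% of the squared CV, and at most 21.7%, in Spis_XP_022789306_1. Among the other models of the window the median share was 0.720%. These values cover counting error only.

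**Figure D1:**
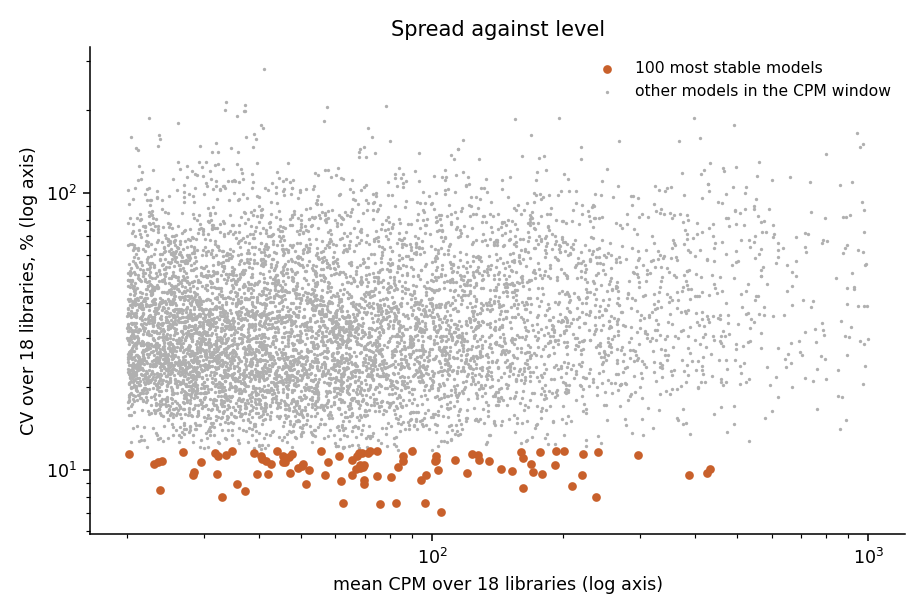
Mean CPM over the 18 libraries (horizontal, log axis) against the CV over the same libraries (vertical, log axis) for the 7322 models of the window, each point 1 model. The 100 members form the lower edge at CVs of 7.04% to 11.7%, because the rule chose them there, and none lies at 500 CPM or above.

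The member with the lowest CV was Spis_XP_022804889_1 (plus strand of NW_019218324.1, 74982 to 92831, 11 coding segments), at 7.04%. It had a lowest, median and highest CPM of 87.9, 109.8 and 114 in the 6 cUA libraries, 100.1, 107 and 113 in the 6 cGAMP libraries and 96.5, 98.7 and 112 in the 6 seawater libraries. The ranges of the 3 treatments overlapped, and cUA 2C held the lowest value and cUA 1A the highest of the 18 libraries. Spis_XP_022785225_1 (minus strand of NW_019217858.1, 364694 to 394759, 30 coding segments) followed at 7.52%. This model had a lowest, median and highest CPM of 69.8, 74.2 and 75.1 in the 6 cUA libraries, 71.1, 77.5 and 87.9 in the 6 cGAMP libraries and 69.0, 74.9 and 85.8 in the 6 seawater libraries. Its cUA libraries lay closest together and inside the range of the seawater libraries, where control 1A and 2A were high and control 1B, 1C and 2C were low.

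LOC111322622 (plus strand of NW_019217823.1, 841191 to 857672, 12 coding segments) had a CV of 7.60%. LOC111322622 had a lowest, median and highest CPM of 56.1, 63.5 and 67.6 in the 6 cUA libraries, 58.9, 64.6 and 69.7 in the 6 cGAMP libraries and 53.0, 59.8 and 68.4 in the 6 seawater libraries. The widest range was that of the seawater libraries, with control 1B and 1C at the bottom and control 2B at the top. LOC111329515 (minus strand of NW_019217919.1, 615994 to 635234, 20 coding segments) had a CV of 7.61%. LOC111329515 had a lowest, median and highest CPM of 86.7, 94.5 and 100.6 in the 6 cUA libraries, 88.6, 92.6 and 110.2 in the 6 cGAMP libraries and 86.8, 99.2 and 109 in the 6 seawater libraries. The 3 ranges overlapped, with cUA 2A and control 2C at the bottom and cGAMP 2A and control 2B at the top. LOC111334637 (minus strand of NW_019218033.1, 239533 to 259564, 24 coding segments) had a CV of 7.63% and a mean of 84.7 ± 8.16 CPM with cUA, 82.3 ± 6.13 CPM with cGAMP and 81.2 ± 4.87 CPM in seawater (SD, n = 6 each). Its group means differed by less than the SD of any of the 3 groups.

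LOC111339314 (plus strand of NW_019218185.1, 48624 to 53850, 13 coding segments) had a CV of 7.99%. LOC111339314 had a lowest, median and highest CPM of 210.0, 227 and 283 in the 6 cUA libraries, 221, 241 and 252 in the 6 cGAMP libraries and 222, 236 and 273 in the 6 seawater libraries. The cUA group reached its highest value in cUA 2A alone, and the other 5 cUA libraries lay between 210.0 and 233 CPM. LOC111344622 (minus strand of NW_019218543.1, 64966 to 67659, 5 coding segments) had a CV of 8.02%. It had a lowest, median and highest CPM of 29.9, 32.5 and 33.3 in the 6 cUA libraries, 25.6, 31.9 and 35.3 in the 6 cGAMP libraries and 33.3, 35.4 and 37.2 in the 6 seawater libraries. Of its seawater libraries 4 lay above every cUA and cGAMP library, and control 1A and 1C overlapped the treated groups. Spis_XP_022797976_1 (minus strand of NW_019218078.1, 281497 to 298189, 9 coding segments) had a CV of 8.40%, with 38.5 ± 3.45 CPM with cUA, 37.5 ± 2.35 CPM with cGAMP and 35.5 ± 3.15 CPM in seawater (SD, n = 6 each).

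**Figure D2:**
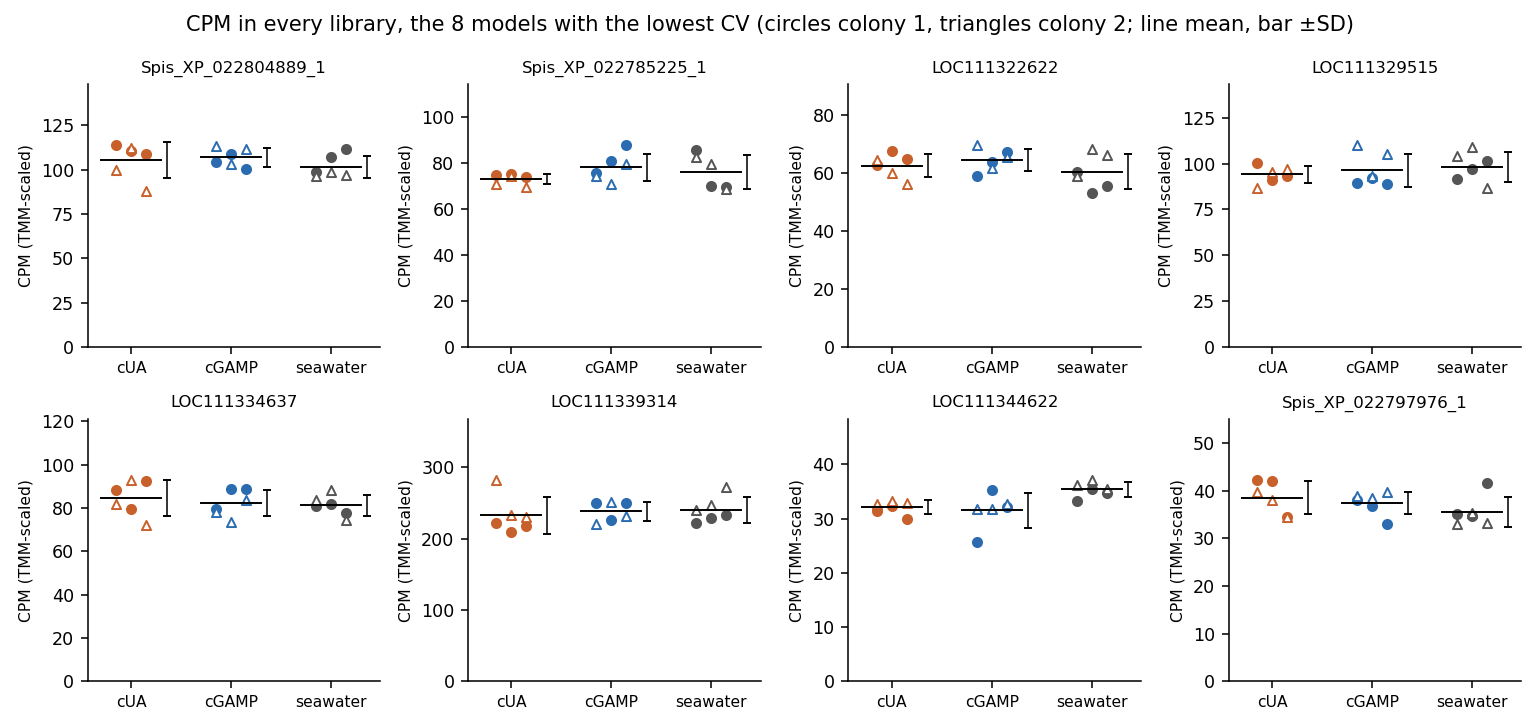
CPM scaled by TMM (vertical axes, from 0) in each library for the 8 models with the lowest CV, by treatment, with filled circles for colony 1 and open triangles for colony 2. Lines are means and bars ± SD of 6 libraries; the groups of each model overlap, and single points stand off in cUA 2A for LOC111339314 (283 CPM), in cGAMP 1A for LOC111344622 (25.6 CPM) and in control 1C for Spis_XP_022797976_1 (41.6 CPM).

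Levels of different members can be compared only per coding length. On the scale of CPM per kilobase of coding length, the members ran from 8.31 to 604, with a median of 45.9, against a median of 39.4 for the other models of the window and 6.83 for all 21375 tested models. LOC111339962 (minus strand of NW_019218212.1, 164406 to 176006, 10 coding segments) was the most abundant on both scales, with 604 ± 61.0 CPM per kilobase (SD, n = 18). LOC111339962 had a lowest, median and highest CPM of 375, 428 and 509 in the 6 cUA libraries, 379, 415 and 452 in the 6 cGAMP libraries and 399.9, 441 and 545 in the 6 seawater libraries. The highest value of all came from control 1A, and the 3 groups overlapped. LOC111339897 (minus strand of NW_019217796.1, 519021 to 529067, 11 coding segments) had the lowest mean CPM, with 19.7 ± 2.51 CPM with cUA, 21.1 ± 2.81 CPM with cGAMP and 19.6 ± 1.43 CPM in seawater (SD, n = 6 each), or 13.8 ± 1.56 CPM per kilobase (SD, n = 18). Its mean of 20.1 CPM lay just above the lower limit of the window.

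Treatment was then set against the spread among specimens, by edgeR's quasi-likelihood test over all 21375 tested models with colony and treatment as terms. A model was called at a Benjamini-Hochberg adjusted p below 0.05. With cUA against seawater 0 of the 100 members were called, where 10.2% of all tested models were (5.91% higher and 4.29% lower). An unadjusted p below 0.05 was found in 1 member and in 4983 of all 21375 tested models. DESeq2 called 0 members and 15.4% of all models. With cGAMP against seawater 2 members were called, both higher, where 21.5% of all tested models were called (9.21% higher and 12.3% lower). There 4 members and 7238 of all tested models had an unadjusted p below 0.05. Between cUA and cGAMP 0 members and 0% of all models were called, with 2 members and 1830 models at an unadjusted p below 0.05. DESeq2 called 1 member and 0.506% of all models there. Since the same libraries chose the members, nothing is read from these counts. Log2 fold changes of the members had a median of 0.02 and ran from -0.26 to 0.24 with cUA, and had a median of 0.02 and ran from -0.22 to 0.33 with cGAMP. With total counts only the medians were -0.07 with cUA and -0.16 with cGAMP, so their sign turned with the scaling. Both comparisons use the same seawater libraries. The median absolute log2 fold change was 0.07 with cUA and 0.08 with cGAMP over the members, against 0.25 and 0.34 over the window and 0.35 and 0.47 over all tested models. The typical standard error of a member's log2 fold change in these comparisons was 0.12, against 0.23 over the window and 0.33 over all tested models. The change was smaller than its error in 80 members with cUA and in 71 with cGAMP. The same share was not computed for other models, and members were chosen for a small spread. Nothing is read from these counts either.

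**Figure D3:**
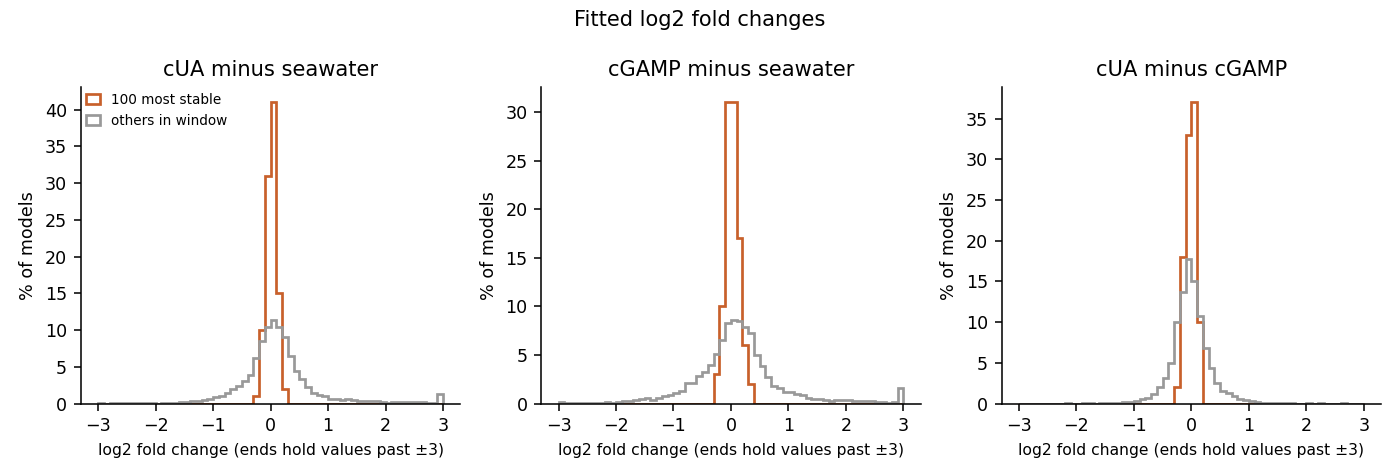
Distribution of fitted log2 fold changes (horizontal) as a percentage of models (vertical, in equal bins) for the 100 members and the other models of the window, in 3 comparisons. The members lie between -0.28 and 0.33 in all 3, while the other models spread far wider, with values past 3 on either side gathered in the end bins.

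LOC111323623 (plus strand of NW_019217834.1, 542466 to 557228, 18 coding segments) was the clearest case of a member that is stable overall and yet ordered by treatment. LOC111323623 had a lowest, median and highest CPM of 61.2, 63.7 and 67.4 in the 6 cUA libraries, 73.6, 76.8 and 83.4 in the 6 cGAMP libraries and 57.8, 62.0 and 64.4 in the 6 seawater libraries. Every cGAMP library lay above every library of the other treatments, and the cUA and seawater ranges overlapped. Treatment accounted for 85.5% of the variation of its log2 CPM, the highest share among the members. Its log2 fold change was 0.33 ± 0.10 with cGAMP (SE, edgeR adjusted p = 0.0261), 0.05 ± 0.10 with cUA, and -0.28 ± 0.10 for cUA against cGAMP, which was not called by edgeR (adjusted p = 0.483) and was called by DESeq2 (adjusted p = 0.0173). It stayed positive with cGAMP in all 27 alternatives and was called in 18 of them (adjusted p from 3.35e-05 to 0.597), and its lowest value, 0.15, came with total counts only.

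LOC111338822 (minus strand of NW_019218166.1, 97707 to 104706, 6 coding segments) was the other member called with cGAMP. LOC111338822 had a lowest, median and highest CPM of 24.0, 25.9 and 28.5 in the 6 cUA libraries, 29.1, 30.2 and 31.3 in the 6 cGAMP libraries and 21.7, 23.5 and 28.5 in the 6 seawater libraries. Again the cGAMP libraries lay above all others, although control 2C and cUA 2C came close. Its log2 fold change was 0.33 ± 0.11 with cGAMP (SE, edgeR adjusted p = 0.0496) and 0.13 ± 0.11 with cUA. The call with cGAMP held in 7 of 27 alternatives (adjusted p from 0.00153 to 0.713), and the log2 fold change was 0.13 with total counts only. A model on the opposite strand overlaps it, and the strand setting of the counting is not given, so reads of the pair may be mixed. By DESeq2, or by edgeR without control 1A and cUA 2A, 3 further members were called with cGAMP, and they are named here after their values were seen. DESeq2 called 5 members and 26.8% of all models it tested, and edgeR without those 2 libraries called 4 members and 34.5% of all models, and nothing is read from these counts either. LOC111339158 was called under both settings. LOC111339158 had a lowest, median and highest CPM of 85.2, 91.8 and 99.6 in the 6 cUA libraries, 91.7, 102.7 and 111 in the 6 cGAMP libraries and 81.9, 88.1 and 92.3 in the 6 seawater libraries. Its groups overlapped. LOC111328528, which overlaps a model on the same strand, was likewise called under both, at 224 ± 15.0 CPM with cUA, 237 ± 11.5 CPM with cGAMP and 199.8 ± 17.3 CPM in seawater (SD, n = 6 each). LOC111324752 was called by DESeq2 and not by edgeR without those 2 libraries.

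None of the remaining named members was called by edgeR, and their values are given without a verdict. With cUA the largest positive log2 fold changes were those of Spis_XP_022781042_1 (plus strand of NW_019217819.1, 5 to 6102, 11 coding segments), 0.24 ± 0.12, and LOC111324752 (plus strand of NW_019217787.1, 351366 to 357837, 6 coding segments), 0.20 ± 0.11 (SE). Spis_XP_022781042_1 had a lowest, median and highest CPM of 28.5, 35.2 and 37.7 in the 6 cUA libraries, 27.3, 33.3 and 37.1 in the 6 cGAMP libraries and 25.1, 29.8 and 31.5 in the 6 seawater libraries. The cUA and cGAMP groups lay mostly above seawater but overlapped it at cUA 2A and cGAMP 2B. LOC111324752 had values of 22.1 to 28.1 CPM with cUA, 23.0 to 27.8 CPM with cGAMP and 18.9 to 23.2 CPM in seawater. The largest negative values with cUA were those of LOC111323316 (minus strand of NW_019217830.1, 502951 to 505836, 5 coding segments), -0.26 ± 0.12, and Spis_XP_022785608_1 (plus strand of NW_019217862.1, 646276 to 662426, 21 coding segments), -0.18 ± 0.12. LOC111323316 had a lowest, median and highest CPM of 26.7, 30.6 and 38.1 in the 6 cUA libraries, 29.6, 32.5 and 35.2 in the 6 cGAMP libraries and 35.3, 36.7 and 40.5 in the 6 seawater libraries. Every cGAMP library of LOC111323316 lay below every seawater library, by a margin of less than 1 CPM, while cUA 2C lay inside the seawater range. Spis_XP_022785608_1 averaged 162 ± 7.80 CPM with cUA, 163 ± 18.2 CPM with cGAMP and 184 ± 13.4 CPM in seawater. With cGAMP the most negative log2 fold changes were those of Spis_XP_022805752_1 (minus strand of NW_019218376.1, 58155 to 71486, 24 coding segments), -0.22 ± 0.12, and LOC111323316, -0.21 ± 0.12. Between the compounds the extremes were Spis_XP_022802752_1 (plus strand of NW_019218225.1, 212757 to 238610, 20 coding segments), 0.18 ± 0.11, and LOC111323623 as given above.

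The groups of 6 libraries overlapped in nearly all members, and in most of the tested models too. The same libraries chose the members, so nothing is read from the counts that follow. For cUA against seawater 1 member did not overlap, Spis_XP_022789306_1, with 24.7 ± 1.01 CPM with cUA and 21.9 ± 1.45 CPM in seawater (SD, n = 6 each), where 5.33% of all tested models did not overlap. A model on the opposite strand overlaps Spis_XP_022789306_1 too. For cGAMP against seawater 3 members did not, LOC111323623 and LOC111338822 above and LOC111323316 below, where 10.4% of all tested models did not. For cUA against cGAMP 3 members did not, against 0.468% of all tested models, and all 3 were lower with cUA. They were LOC111323623, LOC111338822 and Spis_XP_022783360_1, the last at 60.6 ± 3.89 CPM with cUA, 72.5 ± 2.66 CPM with cGAMP and 67.6 ± 6.75 CPM in seawater. Over the members the ratio of the highest to the lowest treatment mean had a median of 1.08 and a highest value of 1.26, against a median of 1.32 in the other models of the window. The highest mean was in cUA for 34 members, in cGAMP for 39 and in seawater for 27, where the shares among the other models of the window were 23.0%, 44.0% and 32.9%. The lowest mean was in cUA for 29 members, in cGAMP for 29 and in seawater for 42, against 19.6%, 29.4% and 51.0% of the other models. These orders were taken with TMM scaling only. With total counts only the members' median log2 fold change against seawater was -0.07 with cUA and -0.16 with cGAMP, so the orders depend on the scaling.

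Between the colonies 0 members and 0% of all tested models were called by edgeR, with 5 members and 1772 models at an unadjusted p below 0.05, and DESeq2 called 0 members and 3 models (0.0142%). Log2 fold changes of colony 2 over colony 1 were positive in 73 members and negative in 27, with a median of 0.06 over the members and -0.01 over all tested models. With total counts only the members' median was -0.05, so this direction depended on the scaling. The most positive was LOC111327420 (minus strand of NW_019217883.1, 381198 to 389651, 16 coding segments), at 0.24 ± 0.10 (SE), with 134 ± 9.94 CPM in colony 2 and 113 ± 9.52 CPM in colony 1 (SD, n = 9 each). The most negative was LOC111336195 (minus strand of NW_019218078.1, 15002 to 28989, 10 coding segments), at -0.16 ± 0.11, with 120.2 ± 11.8 CPM in colony 2 and 135 ± 13.8 CPM in colony 1. In both models the colonies' ranges overlapped. Over the members treatment accounted for a median of 11.6% of the variation of log2 CPM, and colony for 7.51%. The shares of the degrees of freedom that these terms take up are 11.8% and 5.88%. In the other models of the window the medians were 17.6% and 4.77%.

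Extreme values were unevenly spread over the libraries, in members and in other models. Of the 200 places as a member's highest or lowest library, 78 (39.0%) fell to cUA 2A, cUA 2C, cGAMP 1A and control 1A, the libraries with the lowest TMM factors of the 18. Among the other models of the window the same 4 libraries held 47.7% of these places. cUA 2C was the highest library of 18 members and the lowest of 9, cUA 2A the highest of 12 and the lowest of 8, and control 1A the highest of 4 and the lowest of 13. In these 4 libraries the 50 most abundant models took 22.3% to 24.4% of all counts, against 15.9% to 19.5% in the others, and the part of that in the members' spread was not tested. cUA 2B, with the smallest deviations, was the highest library of 1 member and the lowest of 2. Outside those 4 libraries, control 2B (TMM factor 1.12) was the highest of 11 members and the lowest of 1. cGAMP 1C was the highest of 10 and the lowest of 6. Among the other models of the window, 2.26% were highest in control 2B and 4.75% in cGAMP 1C. The first principal axis of the members' log2 CPM held 19.0% of the variance, against 39.9% for the other models of the window. The median correlation over the 18 libraries was 0.07 between members (4950 pairs that share libraries and scaling) and 0.03 between the other models. Correlations above 0.5 made up 7.84% of member pairs and 15.8% of the other pairs. Those below -0.5 made up 3.56% and 12.7%. All these values are descriptions, since the members were chosen by their CV over the same libraries.

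Ratios between the counts of members use no scaling factor, because the library total cancels, but their spread is still set by the choice of both models for a low CV over the same libraries. Over the 18 libraries the SD of the log2 count ratio of a pair of members had a median of 0.20, against 0.72 for pairs of the other models of the window. The steadiest pair was LOC111338166 (Spis_XP_022800332_1) and LOC111339314, chosen after its values were seen, whose count ratio had a lowest, median and highest value of 0.366, 0.421 and 0.474. LOC111322622, LOC111329515 and LOC111339314 had the lowest mean SD of log2 ratios to the other members, 0.17 to 0.18.

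Membership rested on the scaling. With size factors by the relative log expression method (RLE) the same rule picked 81 of the 100 members again, with upper quartile scaling 74, and 63 were picked with both. With total counts only, 1 member was picked again, LOC111334697 (Spis_XP_022796252_1), at a CV of 13.1% against 10.9% with TMM. The members' median CV was 10.7% with RLE, 10.5% with upper quartile scaling and 19.0% with total counts only. The models that total counts picked in their place had a median CV of 12.4% by that scaling and 20.9% with TMM. The median SD of log2 ratios between these models was 0.23, against 0.20 between the members. Factors taken from the members' own counts lay within 0.957 to 1.06 times the TMM factors, and with them 2171 models were called with cUA and 4648 with cGAMP, against 2179 and 4603 with TMM. The rule fixed this closeness, since members are nearly constant after TMM scaling by choice.

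**Figure D4:**
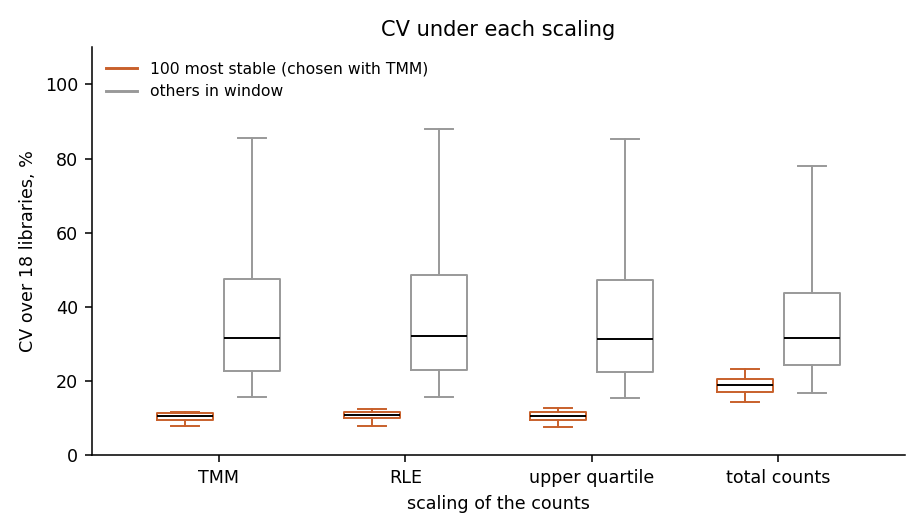
CV over the 18 libraries (vertical axis, from 0) under 4 scalings, for the 100 members and the other models of the window. Boxes span the quartiles with the median as a line, and whiskers run from percentile 5 to percentile 95; the members' median is 10.5% with TMM, 10.7% with RLE, 10.5% with upper quartile scaling and 19.0% with total counts only.

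To read the spread in libraries whose CPM was not ranked, the rule was applied to 1 colony and the CV taken in the other. The TMM factors came from all 18 libraries together, so the libraries read were not independent of the choice. The 100 models picked in the 9 libraries of colony 1 had a median CV of 8.08% there and 14.6% in colony 2, where the rest of the window had a median of 30.5%, and 99 of the 100 lay below that median. The 100 picked in colony 2 had a median CV of 8.77% there and 12.95% in colony 1, against 29.7% for the rest, again with 99 of 100 below. Of these lists 44 and 56 models were members. The same treatments were given to each colony. A model that changes with treatment in each colony thus has a raised CV in ranked and read libraries alike. The low CVs in the colony that was not ranked were therefore partly set by the choice, and nothing is read from the 99 of 100. Models picked in the 12 cUA and cGAMP libraries had a median CV of 12.4% in the 6 seawater libraries, against 25.4% for the rest. Those picked in the 6 seawater libraries had 18.9% in the 12 cUA and cGAMP libraries, against 28.8%, and 91 of 100 lay below the median of the rest. In these splits by treatment the ranked and the read libraries came from the same colonies, so nothing is read from the 91 of 100 either. The CV in the libraries that were ranked was lower each time than in the libraries that were not.

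The gene structure of the members was not part of the rule, and it was read only for the members chosen with TMM scaling. Members had a median of 12 coding segments, against 8 in the other models of the window and 5 in all tested models. Of the 100 members, 67 had 10 or more coding segments (44.5% of the other models of the window and 26.2% of all tested models had as many), and 4 had 3 or fewer (19.2% and 38.0%). Those 4 were LOC111325092 and LOC111320589 with a single segment, LOC111325731 with 2 and Spis_Spis19068_1 with 3, and the last was the only member predicted by AUGUSTUS rather than Gnomon. The member with the most segments was Spis_XP_022784581_1, with 50. Coding length differed less, with a median of 1496 bases in members, 1410 in the other models of the window and 1173 in all tested models. The median span in the genome was 11202 bases against 8078 and 4823, and the share of the span outside coding segments 86.4% against 81.8% and 75.5%.

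The share of members among the models of the window was lower with 3 or fewer coding segments than with more. It was 0.485% of models with 1 segment, 0.204% with 2 to 3, 1.05% with 4 to 6, 1.36% with 7 to 10, 2.05% with 11 to 20 and 1.99% with 21 or more. The median CV of all models of the window stepped down over the same classes, at 43.2%, 39.5%, 34.3%, 29.5%, 28.2% and 27.1%. The share called with cGAMP was 26.2% in the first class and 18.2% in the last. Median levels also differed between the classes, at 44.3 CPM in the first and 59.2 CPM in the last, and the part of level in this pattern was not tested. The number of transcripts listed for a gene in the reference table had a median of 1 in the 71 matched members and in the 4906 other matched models of the window, and 62.0% and 62.2% of them had a single transcript.

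**Figure D5:**
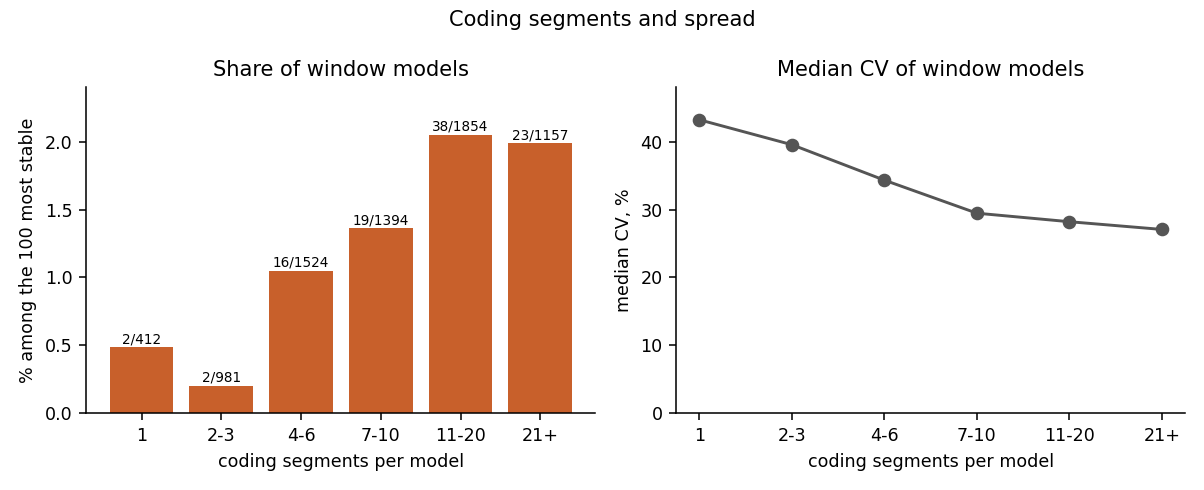
Left, the percentage of models of the window that are members (vertical axis) by number of coding segments (horizontal axis), with the counts above each bar; right, the median CV of all models of the window in the same classes. The percentage is 0.204% at 2 to 3 segments and 2.05% at 11 to 20, and the median CV is 43.2% at 1 segment and 27.1% at 21 or more.

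The members were scattered over 86 of the 3122 scaffolds of the annotation. At most 3 lay on the same scaffold, NW_019217851.1, and 0 pairs of members were next to each other. On the plus strand lay 41 of them, against 50.5% of the other models of the window. Of the 100 members 6 overlapped another model, 1 on the same strand and 5 on the opposite strand, against 4.50% of the other models of the window. Reads of these 6 may have been shared with or lost to the overlapping model. The mitochondrial genome, which had 2 models in the window, held 0 members, and the lowest CV of those 2 models was 37.8%. Cglr2, the cGAS-like receptor gene, lay below the window, with a mean of 4.96 CPM and a CV of 41.9%.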

How the data were processed

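Counts of reads per gene model in 18 libraries were deposited by the authors as whole numbers without normalization. The submitters' processing notes list DESeq2, STAR and featureCounts. The strand setting, genome build, versions and treatment of multiply matching reads are not given in these sources. Libraries were directional and made from poly(A) RNA, per the labels' protocols. Positions came from the deposited annotation.

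The members, lists and tests were chosen with earlier results of these data known. TMM factors were computed over the 21375 models that passed filterByExpr in edgeR 4.0.16 (R 4.3.3), with full library totals. Models were tested with robust quasi-likelihood fits of colony plus treatment over all 18 libraries, at an adjusted p below 0.05, after a test on simulated data. The standard error is the absolute log2 fold change over the square root of F. Alternatives were other scalings, DESeq2 1.42.0, no low-count filter, a replicate block, single colonies and leaving out libraries. Log2 CPM used a prior count of 2, and count ratios an added 0.5. Libraries of the same treatment and colony differed by more than counting error after scaling to their totals. A chi-square over degrees of freedom reached at least 19.9 for each of their 18 pairs. That value includes differences in library composition, and it does not show whether the specimens were independent. P-values reflect variation among these specimens only, which may be partly technical. The fits also draw each model's spread toward that of the other tested models. The members were chosen for a small spread, so their standard errors and p-values carry spread of other models too.

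Named were the 8 members with the lowest CV, 3 models on either side of the limit, the members of highest and lowest mean CPM, and those with the largest log2 fold changes in each comparison. Other members were named after their values were seen. No sequence of any model was in the sources used here.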

Additional observations from a re-analysis of the deposited data

Results flagged for a closer look

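In the groups of 6 libraries, a single library stood far from the other 5 in 4 of 72 groups examined, for 23 named members and the members' mean log2 CPM. For independent groups not chosen by their spread, chance would flag about 1 group in 20, or 3.60 of 72. These groups share libraries and scaling, and the models were chosen by their CV. The number of flags therefore does not show whether chance made them. LOC111339314 (Spis_XP_022801676_1) had 283 CPM in cUA 2A, where the other cUA libraries lay between 210.0 and 233 CPM. LOC111344622 (Spis_XP_022807600_1) had 25.6 CPM in cGAMP 1A, where the others lay between 31.7 and 35.3 CPM. Spis_XP_022797976_1 had 41.6 CPM in control 1C, against 32.9 to 35.3 CPM in the other seawater libraries. LOC111320547 (Spis_XP_022778935_1) had 98.7 CPM in cUA 2C, against 65.3 to 75.7 CPM in the other cUA libraries. cUA 2A, cUA 2C and cGAMP 1A also had low TMM factors (0.619, 0.862 and 0.886), while control 1C had the highest (1.23), and the part of library composition in these values was not tested.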

How the results depend on the processing

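LOC111323623 and LOC111338822, the members called with cGAMP as reported, had positive log2 fold changes in all 27 alternatives. Of the members called with cGAMP against seawater, 2 as reported, 0 were called with total counts only, without the low-count filter, with the replicate block and in colony 1 or colony 2 alone, 1 with scaling by the members, 4 without control 1A and cUA 2A (34.5% of all models), and 5 with DESeq2 (26.8% of all models). Leaving out each library in turn gave 0 to 2, with 0 without cGAMP 1C, control 1B or control 1C. Members called with cUA against seawater and between colonies were 0 in each alternative, and cUA against cGAMP gave 1 with DESeq2 and otherwise 0.

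The count of all models called with cUA, 2179 as reported, was 3269 with DESeq2, 931 in colony 1 alone and 471 in colony 2 alone, and 1369 (without control 2A) to 3392 (without control 1A) with a library left out. With cGAMP it was 4603, and 5675 with DESeq2, 4648 with scaling by the members, 7482 without control 1A and cUA 2A, 2726 in colony 1, 813 in colony 2, and 3567 to 6220 with a library left out. Between the compounds it was 0 in either direction. It was 416 higher and 313 lower with cUA without control 1A and cUA 2A, 82 and 21 with DESeq2, 0 and 2 in colony 1, and 0 to 31 and 0 to 14 with a library left out, the most without cUA 2A. Between colonies it was 0, and 99 without control 1A and cUA 2A, 3 with DESeq2, and 0 to 257 with a library left out. Scaling by total counts gave 1366 higher and 2889 lower with cGAMP, against 1969 and 2634 as reported, and put the median log2 fold change over tested models at -0.24, against -0.07.

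Of the 100 members the rule picked 1 again with total counts only, 27 with the median absolute deviation over the median, 51 without control 1A and cUA 2A, 44 in colony 1, 56 in colony 2, and 23 in the cUA, 21 in the cGAMP and 9 in the seawater libraries alone. It picked 92 by the SD of log2 CPM, 94 from 10 CPM, 68 from 50 CPM, and 94 with TMM factors over all models, an alternative chosen after seeing the data. With a library left out it picked 71 (without cUA 2A) to 96, and 56 members were picked in all 18 such lists. The members' median CV moved to 19.0% with total counts only and 8.93% in the cGAMP libraries, and ran from 10.1% to 10.8% with a library left out.

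The members' mean log2 CPM differed by 0.013 between cUA and seawater, 0.028 between cGAMP and seawater and -0.016 between cUA and cGAMP. With total counts only these were -0.084, -0.132 and 0.047, and with upper quartile scaling the first pair were -0.064 and -0.075, so their direction followed the scaling. Leaving out a library gave -0.0022 to 0.035, 0.020 to 0.050 and -0.043 to -0.011. Whether sample numbers pair the libraries was not settled. Of 18 same-numbered pairs 6 had deviations correlated over 0.1 (median 0.04, from -0.447 to 0.381). Pairs with different numbers were not computed for comparison. With the replicate block 1674 models were called with cUA, 4029 with cGAMP, 0 between compounds and 0 between colonies. The cause of each change was not tested. No library had under 328 counts of a member, and the part of depth in these values was not tested.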

Other observations

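The members' neighbours in the genome, the models next to them in the annotation, were read as well. The 100 members had 195 distinct neighbours that were not members, of which 172 were tested. With cUA 11 of the 172 were called (6.40%, with 7 higher and 4 lower), where 10.2% of all tested models were. With cGAMP 26 were called (15.1%, with 9 higher and 17 lower), where 21.5% of all tested models were. The tested neighbours had a median CV of 32.4%, against 43.7% for the other 21103 tested models, and a median level of 14.02 CPM, against 8.67 CPM for all tested models. Among the 64 neighbours inside the window the median CV was 27.8%, against 31.7% for the other models there, and 9.38% and 10.9% were called with cUA and cGAMP, where 11.2% and 22.2% of the models of the window were. The part of level in these differences was not tested.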
